A study of Mus musculus with 8 samples.

Results

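CpG islands of 600 to under 1500 bp whose sequence held few CpGs for its base composition carried more DNA methylation than islands of the same length that were rich in CpG, in all 8 libraries of differentiating *Smchd1*wt and *Smchd1*matΔ mESCs. The CpG ratio is the observed number of CpGs divided by the number that the C and G content predicts, and the ratio used was the value listed for each island in the deposited table. Of 13840 listed islands, 7461 had a methylation value in every library, and 4732 of these were autosomal, 600 to under 1500 bp long and outside the *Hox* set. The 1196 islands at or below the 25th percentile of their listed ratio, which was 0.8, are called low-ratio islands here. They were compared with the 1342 islands at or above the 75th percentile, which was 0.92, called high-ratio islands, and 2194 islands lay between. The ratio of the low-ratio islands ran from 0.6 to 0.8 with a median of 0.76, and that of the high-ratio islands from 0.92 to 1.37 with a median of 0.96. The choice used no methylation value beyond its presence in every library.

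The libraries were made by reduced representation bisulfite sequencing (RRBS), which cuts genomic DNA at CCGG sites and reads cytosine methylation in the CpG-dense fragments. Male primary mESC lines with the genotype Smchd1[fl/+] (wild-type, *Smchd1*wt) or Smchd1[del/+] (maternally deleted, *Smchd1*matΔ) were differentiated towards neuromesodermal progenitors (NMPs) and sampled at day 2 and at day 2.5, with 2 lines per genotype and the same lines at both days. All lines were F1 between a C57BL/6 mother and a Castaneus father, and all were grown with bFGF, with the Wnt agonist CHIR99021 added from day 2. In the *Smchd1*matΔ lines the maternal allele was deleted in the oocyte by Zp3-Cre while the paternal allele was intact, so these lines lack the maternal supply and 1 allele but not the gene. A difference between genotypes with 2 lines each cannot be told apart from a difference between lines. DNA methylation carries no transcript level, so the cell type was not checked against markers. Over all 7461 islands the library means lay between 1.41% and 1.62%, and the highest belonged to *Smchd1*matΔ line 1 at day 2.

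CpG islands escape the slow loss of CpG that methylation causes elsewhere in the genome, because methylated cytosine deaminates to thymine and leaves TpG and CpA behind. Most islands lie over gene promoters and are kept free of methylation in embryonic stem cells and in the embryo. The methylated minority is known to include promoters of germline genes, islands within gene bodies and the control regions of imprinted genes. SMCHD1, which the oocyte supplies to the early embryo, binds chromatin and acts as a repressor, and it is best known from X inactivation.

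A set of 7 windows of 200 bases shows the range of sequences behind these values, taken from the plus strand of GRCm38.p6 at the centre of each island with every CpG in capitals. The windows were chosen by methylation level outside annotated UTRs. The annotation and the distance from a start given with a window are those of its whole island. The first 3 are from the 4 low-ratio islands of highest methylation. The island nearest to the transcript start of *Olfr459* (window chr6:41807431-41807630, intergenic, 32031 bp from that start) averaged 94.7% over the libraries, that nearest to *1700030N18Rik* (window chr5:134028623-134028822, intergenic, 62254 bp away) 88.1%, and that in *Lrfn1* (window chr7:28459143-28459342, overlapping a coding exon, 108 bp from the nearest transcript start) 82.0%.
Olfr459 island: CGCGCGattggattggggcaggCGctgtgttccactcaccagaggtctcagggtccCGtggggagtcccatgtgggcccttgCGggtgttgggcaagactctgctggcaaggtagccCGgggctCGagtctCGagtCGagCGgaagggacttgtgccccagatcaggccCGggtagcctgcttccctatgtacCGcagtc
1700030N18Rik island: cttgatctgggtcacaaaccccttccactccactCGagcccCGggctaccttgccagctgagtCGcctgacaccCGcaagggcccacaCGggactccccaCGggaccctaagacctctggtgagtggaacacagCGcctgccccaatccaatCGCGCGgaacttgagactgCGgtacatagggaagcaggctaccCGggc
Lrfn1 island: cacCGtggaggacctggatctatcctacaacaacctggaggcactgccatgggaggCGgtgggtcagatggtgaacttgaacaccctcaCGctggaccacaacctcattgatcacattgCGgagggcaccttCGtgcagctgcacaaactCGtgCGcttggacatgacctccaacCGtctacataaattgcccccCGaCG
They hold 13, 12 and 10 CpGs, against 27, 27 and 38 TpG or CpA pairs. The *Olfr459* window and the reverse complement of the *1700030N18Rik* window share a run of 48 identical bases. The next windows come from low-ratio islands listed at 0 in all 8 libraries, at *Gm36246* (window chr15:102355808-102356007, intergenic) and *Lor*, the gene of the skin protein loricrin (window chr3:92081149-92081348, overlapping a coding exon).
Gm36246 island: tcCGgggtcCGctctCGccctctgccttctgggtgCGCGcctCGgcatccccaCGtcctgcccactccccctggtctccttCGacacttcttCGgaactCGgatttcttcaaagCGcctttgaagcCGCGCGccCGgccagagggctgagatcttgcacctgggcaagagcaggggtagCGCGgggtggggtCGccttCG
Lor island: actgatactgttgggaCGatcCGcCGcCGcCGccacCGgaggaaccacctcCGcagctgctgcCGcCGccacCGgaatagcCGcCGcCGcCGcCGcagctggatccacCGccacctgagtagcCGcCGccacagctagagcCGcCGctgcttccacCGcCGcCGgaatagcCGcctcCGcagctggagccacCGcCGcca
These windows hold 19 and 27 CpGs, against 19 and 22 TpG or CpA pairs. The last windows are from the high-ratio islands of highest methylation, at *Sycp1*, a gene of the meiotic synaptonemal complex (window chr3:102935703-102935902, over a transcript start), which averaged 78.5%, and in an intron 17978 bp from the start of *Gm24492* (window chr17:84269242-84269441), which averaged 73.8%.
Sycp1 island: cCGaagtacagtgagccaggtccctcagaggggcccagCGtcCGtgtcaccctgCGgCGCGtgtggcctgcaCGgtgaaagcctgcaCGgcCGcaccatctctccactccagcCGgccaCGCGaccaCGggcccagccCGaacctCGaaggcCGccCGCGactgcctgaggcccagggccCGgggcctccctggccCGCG
Gm24492 island: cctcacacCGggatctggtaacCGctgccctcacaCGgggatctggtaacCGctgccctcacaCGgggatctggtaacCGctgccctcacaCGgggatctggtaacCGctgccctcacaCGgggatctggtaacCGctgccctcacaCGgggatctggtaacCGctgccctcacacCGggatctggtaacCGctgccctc
The *Sycp1* window holds 21 CpGs against 26 TpG or CpA pairs, and the *Gm24492* window 14 against 28. Computed from the reference over its coordinates, the ratio of the *Gm24492* island was 0.681, although its listed ratio was 0.95. That of the *Olfr459* island, listed at 0.79, was 0.698. The *Gm24492* window is a tandem repeat: shifted by 28 bases against itself, it was 98.8% identical.

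Sequence set the classes apart in more than the ratio. Lengths were alike, with a median of 865 bp in low-ratio and 866 bp in high-ratio islands. The median low-ratio island held 82 CpGs, or 9.4 per 100 bp, and the median high-ratio island 104, or 11.97 per 100 bp. Median GC content was 68.5% against 70.8%. TpG and CpA pairs had a median of 11.7 per 100 bp in low-ratio islands and 9.37 in high-ratio islands, with interquartile ranges of 10.9 to 12.6 and 8.53 to 10.3. Low-ratio islands had a median of 10 CCGG sites, where the library enzyme cuts, and high-ratio islands 13. Of the islands of this length listed in the table, 47.8% of 2504 with a low ratio had a methylation value and 80.6% of 1666 with a high ratio, so the low-ratio islands described are the smaller share that passed the read minimum of the study.

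The listed ratio was not the ratio computed from the reference over the listed coordinates. All 13840 islands began and ended on a CpG of GRCm38.p6, which places the coordinates on this build. The computed ratio had a median of 0.811 in low-ratio and 0.967 in high-ratio islands, the median absolute difference from the listed value was 0.0583, and Pearson's r of the pair was 0.631 across the 4732 islands. Of the 1196 low-ratio islands, 737 (61.6%) were also in the lowest quartile of the computed ratio and 37 were in its highest quartile.

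Low-ratio islands were on average 2.75 times as methylated as high-ratio islands. At day 2 their mean level was 2.18% and 2.02% in *Smchd1*wt lines 1 and 2, against 2.50% and 2.14% in the same order for *Smchd1*matΔ. At day 2.5 it was 2.13% and 2.09% in *Smchd1*wt and 2.36% and 2.07% in *Smchd1*matΔ. High-ratio islands lay between 0.768% and 0.836% in the 8 libraries, so the lowest low-ratio mean was above the highest high-ratio mean. Averaged over the days within a line, the difference between the classes was 1.37 and 1.27 percentage points for *Smchd1*wt and 1.61 and 1.31 for *Smchd1*matΔ. This gave 1.39 ± 0.149 percentage points (SD, n = 4 lines), with low-ratio islands higher in 4 of 4 lines (two-sided exact sign-flip permutation test over lines, p = 0.13, the smallest that 4 lines can give). With the 8 libraries as units the p was 0.00781, but the days of a line are not independent.

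The difference between typical islands was much smaller than the difference between means. The median low-ratio island averaged 0.509% over the libraries and the median high-ratio island 0.350%, and the difference of the medians was 0.141 ± 0.0263 percentage points (SD, n = 4 lines). Within the low-ratio class, 47 islands (3.93%) were listed at 0 in every library and 865 (72.3%), these included, averaged under 1%. A further 283 (23.7%) averaged from 1% to under 10%, 39 (3.26%) from 10% to under 50%, and 9 (0.753%) at least 50%. Among the high-ratio islands 1233 (91.9%) averaged under 1%, 99 (7.38%) from 1% to under 10%, 6 from 10% to under 50% and 4 at least 50%. The 48 low-ratio islands at 10% or more, 4.01% of the class, supplied 57.7% of its summed methylation, and the 10 such high-ratio islands, 0.745% of theirs, supplied 36.2%. Without all islands of 10% or more the difference between the classes was 0.452 ± 0.0253 percentage points (SD, n = 4 lines), and low-ratio islands were higher in 4 of 4 lines.

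**Figure D1:**
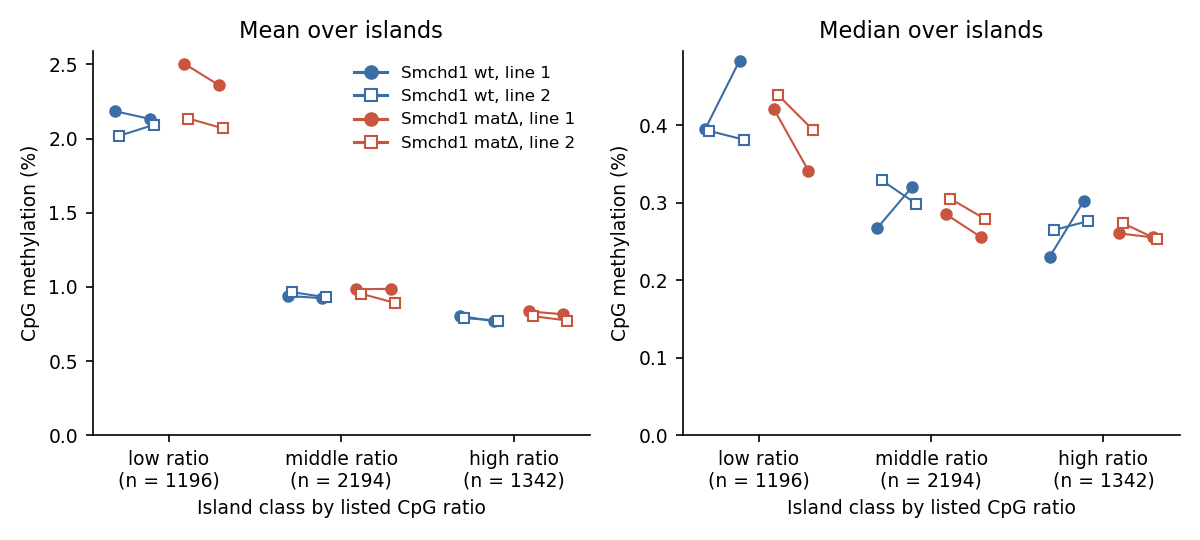
CpG methylation in percent, as the mean (left) and median (right) over islands, for low-ratio, middle and high-ratio islands of 600 to under 1500 bp. Each point is 1 library, lines join day 2 (left point) to day 2.5 (right point) of a cell line, and colours mark the genotype. The 8 low-ratio means, 2.02% to 2.50%, lie above all middle and high-ratio means, and the highest at each day is *Smchd1*matΔ line 1.

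Methylation was concentrated at the lowest ratios and did not fall evenly along the scale. In the lowest decile of the 4732 islands, with a ratio of 0.6 to 0.75, the mean level was 3.08% ± 0.225 (SD, n = 4 lines) and 38 of 551 islands (6.90%) averaged 10% or more. In the next decile, from 0.76 to 0.79, the mean was 1.45% ± 0.136 and 8 of 506 islands (1.58%) reached 10%. From a ratio of 0.88 up, the decile means lay between 0.687% and 0.861% with no order among them. Spearman's rank correlation between the listed ratio and the level across the 4732 islands was between -0.125 and -0.0688 in the 8 libraries, and within the low-ratio class between -0.143 and -0.0892, weak relations given as a description of islands that share each library. At the limit of the class, the 139 islands with a ratio of 0.8 averaged 1.33% and the 193 just outside it, at 0.81, averaged 1.16%. At the other limit the 174 islands at 0.91 averaged 0.564% and the 191 at 0.92 averaged 1.42%. Their medians were close, at 0.357% and 0.380%.

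**Figure D2:**
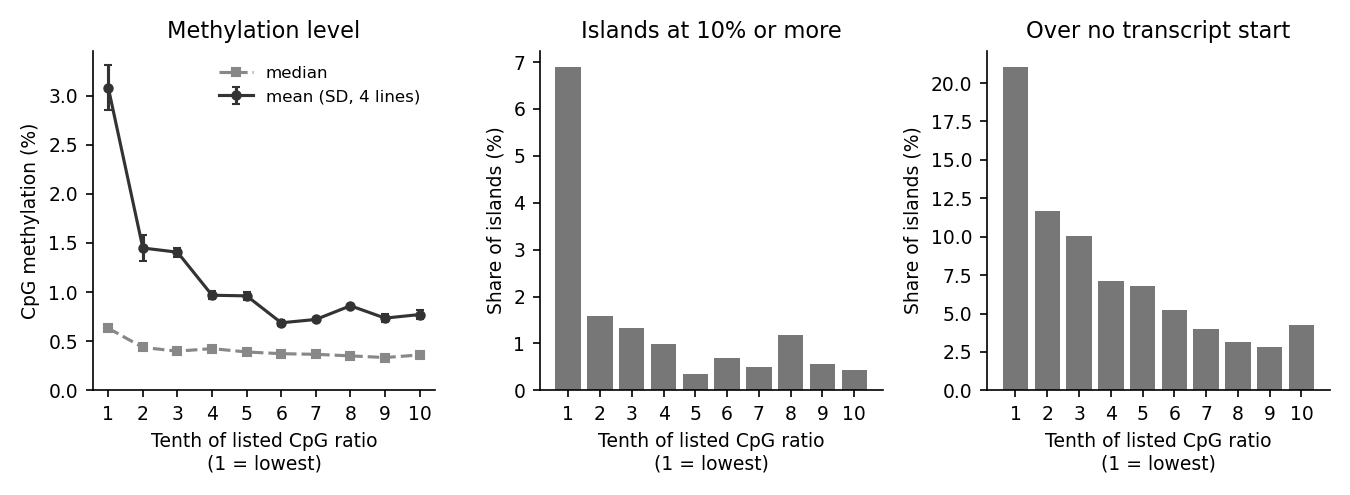
Islands of 600 to under 1500 bp in deciles of the listed CpG ratio, from lowest (1) to highest (10). The panels show CpG methylation in percent (mean with SD over 4 lines, and median over islands), the share of islands averaging 10% or more, and the share over no annotated transcript start. All of these are largest in the lowest decile, with a mean of 3.08% and 6.90% of islands at 10% or more.

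Position followed the ratio. An annotated transcript start of any kind lay within 1005 low-ratio islands (84.0%) and 1296 high-ratio islands (96.6%). Over a start, low-ratio islands averaged 0.976% ± 0.0328 and high-ratio islands 0.647% ± 0.0196 (SD, n = 4 lines), a difference of 0.329 ± 0.0245 percentage points with the low-ratio class higher in 4 of 4 lines (exact sign-flip permutation test, p = 0.13). The 191 low-ratio islands over no start averaged 8.56% ± 0.908 and the 46 high-ratio ones 4.97% ± 0.123, a difference of 3.59 ± 0.854 percentage points, again with 4 of 4 lines in that direction (same exact permutation test, p = 0.13). The low-ratio class was thus higher on both sides of this split. As a ratio of the class means the difference was 1.51 over a start and 1.72 over none.

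Distance from a start ordered the low-ratio islands further. The 85 within 2 kb of a start but not over it averaged 5.24% ± 0.717, and 11 of them (12.9%) reached 10%. The 106 lying over 2 kb away averaged 11.2% ± 1.06, with a median of 2.26%, and 29 (27.4%) reached 10%. The 22 high-ratio islands at that distance averaged 7.71% ± 0.159, and 2 of them reached 10%. The ratio of the class means was 2.13 within 2 kb and 1.45 beyond, so it did not grow with distance as the level did. *Smchd1*matΔ line 1 had the highest level of low-ratio islands in both groups away from a start, 6.30% within 2 kb and 12.8% beyond, against 4.71% to 5.04% and 10.5% to 10.9% in the other lines.

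**Figure D3:**
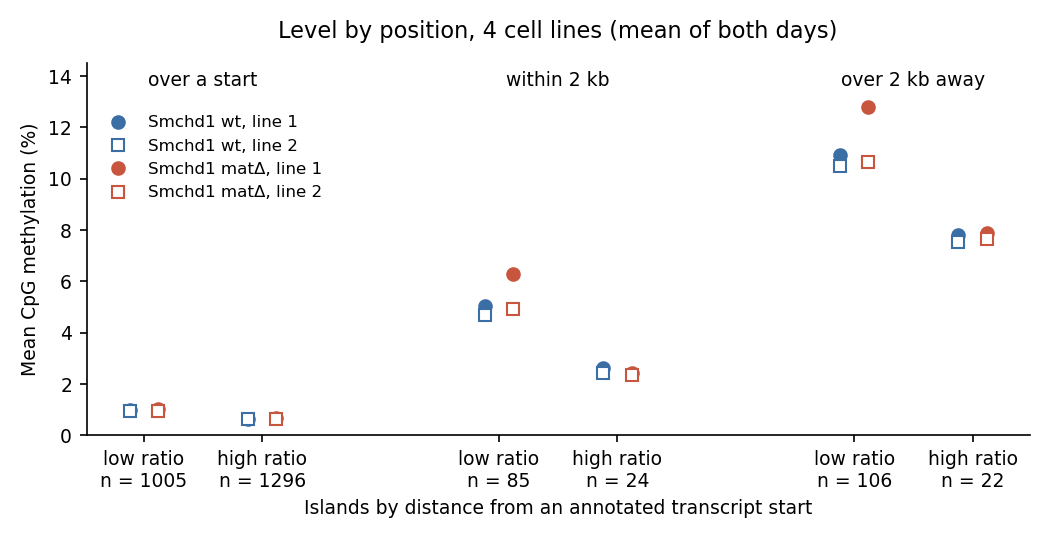
Mean CpG methylation in percent of low-ratio and high-ratio islands over a transcript start, within 2 kb of a start, and over 2 kb away. Each point is 1 cell line, averaged over both days. Low-ratio islands lie above high-ratio islands at each distance in all 4 lines, and over 2 kb away they run from 10.5% to 12.8%.

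The 48 low-ratio islands at 10% or more were mostly away from starts. Of these, 8 (16.7%) covered a transcript start, against 997 of the 1148 (86.8%) less methylated ones. A coding exon was overlapped by 36 (75%), a share close to the 69.4% of the less methylated ones. Most of the 48 thus lay inside genes, as did most of the less methylated islands. Intergenic islands were a larger share of the 48, with 7 (14.6%) against 3.05%, and so were intronic ones, with 4 (8.33%) against 0.697%. Of the 191 low-ratio islands over no start, the 123 that overlapped a coding exon averaged 8.38% ± 1.06 and 29 of them reached 10%. The 42 intergenic ones averaged 10.95% ± 0.412, with a median of 1.17%, and 7 reached 10%. Among the 10 high-ratio islands at 10% or more, 6 covered a transcript start. The 48 islands also held fewer CpGs and more TpG or CpA pairs, with medians of 8.22 CpGs and 13.4 TpG or CpA pairs per 100 bp, against 9.44 and 11.7 in the other low-ratio islands.

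Copies of repeated sequence were more common among the methylated members than in their class. A run of 75 bases, the read length of the study, was shared exactly with another listed island, on either strand, by 27 of the 1196 low-ratio islands (2.26%), by 23 of the 1342 high-ratio islands (1.71%) and by 22.1% of all 13840 listed islands. Of the 48 low-ratio islands at 10% or more, 11 (22.9%) shared such a run, including the 3 of highest level. That share was above the share of the class and near that of all listed islands. The *Olfr459* island shared runs with 637 other listed islands, of which 12 had a methylation value, and the intronic island near *Gm13463* with 717, of which 9 had a value. Reads from such copies cannot all be placed, so the values of these 11 islands are uncertain, and whether their copies contributed reads was not tested. Without all islands that share a run, the difference between the classes was 1.03 ± 0.116 percentage points (SD, n = 4 lines).

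The 3 islands of highest mean measured 77.3% or more in every library. The *Olfr459* island (chr6:41807208-41807852, ratio 0.79) measured at day 2 93.8% and 98.3% in *Smchd1*wt, and 93.6% and 89.1% in *Smchd1*matΔ, and between 95.5% and 96.1% in the 4 libraries of day 2.5. The *1700030N18Rik* island (chr5:134028248-134029197, ratio 0.75) lay between 77.3% and 93.8%, and the intergenic island 31541 bp from *AC157903.1* (chr18:64048726-64049879, ratio 0.74) between 81.0% and 96.1%. All 3 are intergenic and among the islands with copies, and the genotypes overlapped at both days except for *Olfr459* at day 2.

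Among islands in genes, that of *Lrfn1*, which encodes a synaptic adhesion protein with leucine-rich repeats, was the most methylated (chr7:28458766-28459719, ratio 0.72). It measured 79.2% and 70.8% in *Smchd1*wt against 82.8% and 72.7% in *Smchd1*matΔ at day 2, and 92.0% and 80.0% against 93.8% and 84.9% at day 2.5. In this island line 1 was above line 2 in each group. *Zbtb7a*, which encodes a zinc finger repressor, had an island overlapping a coding exon 6013 bp from the start (chr10:81143966-81144997, ratio 0.77) at 70.0% and 55.0% in *Smchd1*wt against 91.2% and 59.1% in *Smchd1*matΔ at day 2. The day 2.5 values were 69.4% and 60.0% against 76.3% and 53.8%. The genotypes overlapped at both days, and the lines of *Smchd1*matΔ differed by more than the genotypes did. *Sfi1*, a centrin-binding protein gene, had an island over a transcript start and an annotated UTR (chr11:3192998-3193699, ratio 0.75) that varied little, from 60.5% to 68.5%. The island overlapping a coding exon of *Irgc1*, an immunity-related GTPase gene, lay 2239 bp from the start (chr7:24432198-24433295, ratio 0.76) and ranged from 41.7% to 78.8%, with both extremes in *Smchd1*matΔ.

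The 4 named islands of lowest ratio differed widely in level. Their means ran from 0.912% to 30.2%, all above the class median of 0.509%. The lowest listed ratio, 0.6, belonged to islands at *Zfp319*, a zinc finger gene, and *Smpd5*, a sphingomyelin phosphodiesterase gene. Their computed ratios were 0.827 and 0.708, so that of *Zfp319* was above the class median of 0.811. The *Zfp319* island (chr8:95327811-95328933, overlapping a coding exon 3017 bp from the start) ranged from 18.6% to 36.2%, and line 1 was above line 2 in all 4 groups. The *Smpd5* island (chr15:76294356-76295259, over a transcript start) ranged from 2.00% to 7.21%. Next came an intronic island of *Rnd3* (chr2:51147552-51148215, ratio 0.61), which was listed at 0 in all line 2 libraries and in *Smchd1*wt line 1 at day 2.5, and between 4.17% and 4.55% in the remaining line 1 libraries. The island of the leukotriene B4 receptor gene *Ltb4r2* (chr14:55761979-55762879, ratio 0.61) stayed between 0 and 2.56%.

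**Figure D4:**
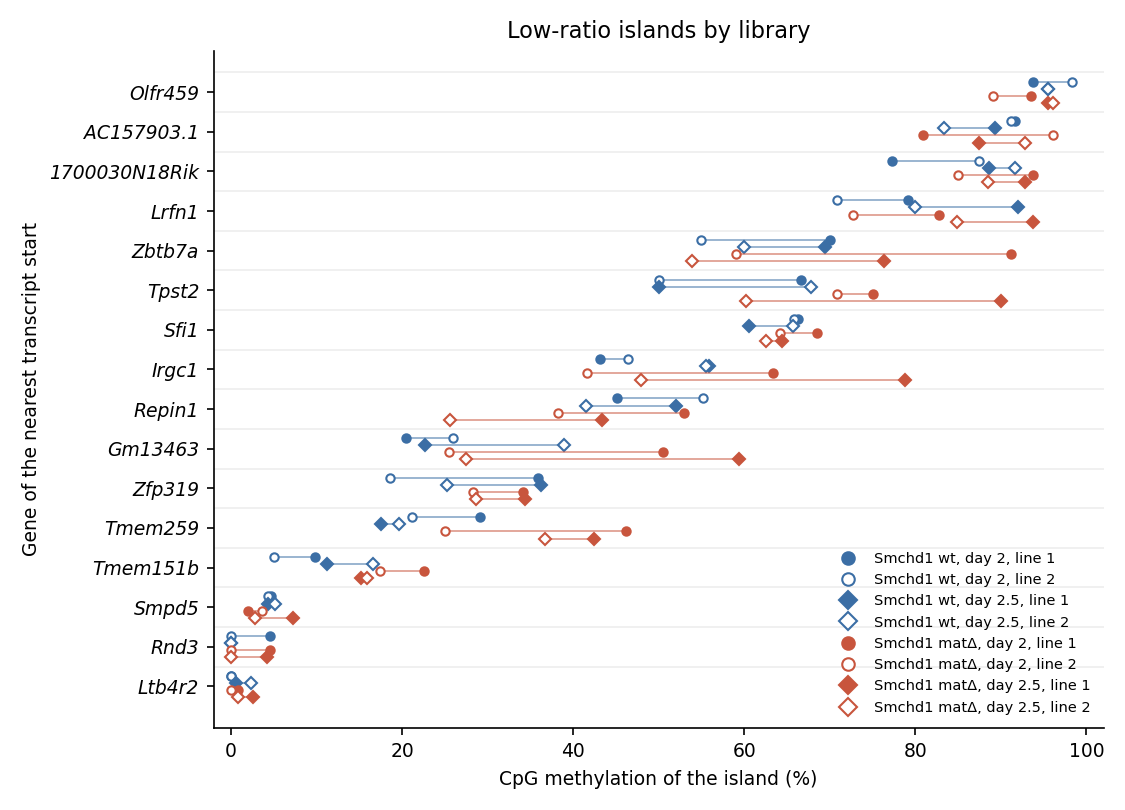
CpG methylation in percent of low-ratio islands, 1 row per island named by the gene of the nearest transcript start: the 8 of highest mean, those of largest genotype difference at each day and the 4 of lowest CpG ratio. Colour marks genotype, circles day 2, diamonds day 2.5, filled symbols line 1 and open symbols line 2. The *Olfr459* island lies between 89.1% and 98.3%, while *Irgc1*, *Gm13463* and *Zbtb7a* spread widely within *Smchd1*matΔ.

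The loss of maternal SMCHD1 was addressed by comparing genotypes at each day. At day 2 the mean of the low-ratio islands was 2.101% ± 0.117 over the control lines and 2.32% ± 0.261 over the deleted lines (SD, n = 2 lines), a difference of 0.219 percentage points with overlapping lines. At day 2.5 it was 2.11% ± 0.0287 and 2.22% ± 0.207, a difference of 0.103 points, also with overlap. Without *Smchd1*matΔ line 1 the differences were 0.0338 and -0.0434 points, so 1 line decided their size and, at day 2.5, their direction. The genotype difference of high-ratio islands was 0.0219 points at day 2 (0.0237 at day 2.5), and the difference between the classes was 0.197 and 0.0790 points larger in *Smchd1*matΔ. No test was made of these means, since an exact permutation test of 2 lines against 2 cannot give a p below 0.33. The mean over all 7461 islands was also higher in *Smchd1*matΔ, by 0.0906 points at day 2, without overlap, and by 0.0571 at day 2.5, with overlap. In the high-ratio mean the genotypes overlapped at day 2 but not at day 2.5.

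Line 1 of *Smchd1*matΔ stood above the other lines mainly where methylation was high. Over the 48 low-ratio islands at 10% or more it averaged 38.0% at day 2, against 31.3% and 28.3% in *Smchd1*wt and 29.3% in *Smchd1*matΔ line 2. At day 2.5 it averaged 35.5%, against 30.0%, 30.3% and 29.0%. It was the highest of the 4 libraries in 28 of the 48 islands at day 2 and in 18 at day 2.5. Among the 124 islands at 10% or more that are not low-ratio islands of this length, it was the highest in 47 at day 2 and in 52 at day 2.5, so it also led there. Low-ratio islands under 10% averaged 0.942% ± 0.0331 in *Smchd1*wt, below the 1.01% ± 0.0136 of *Smchd1*matΔ at day 2, without overlap, and 0.941% ± 0.0370 and 0.961% ± 0.0229 at day 2.5, with overlap (SD, n = 2 lines).

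No low-ratio island passed an adjusted p of 0.05 for genotype in limma, where 1149 of the 1196 varied and were tested among 7196 islands. At day 2, day 2.5 and averaged over the days, 0 members were called, against a background of 0% of all islands. At an unadjusted p under 0.05 there were 58 members at day 2 (5.05% of those tested, background 4.21%), 56 at day 2.5 (4.87%, background 4.29%) and 56 averaged over the days (4.87%, background 5.21%), shares near those of all islands. The high-ratio class had 33, 50 and 54 of 1302 tested. The median difference of the tested members was 0.0134 points at day 2 but 0 at day 2.5, and that over all islands was 0 on either day. Leaving out 1 library of a compared group gave 10 to 18 calls among members in a genotype comparison at 1 day (0.877% to 1.58% of those tested), against 73 to 121 among all islands (1.02% to 1.70%), so the shares were alike. Over these 8 fits, 104 of 119 member calls (87.4%) were islands listed at 0 in every library but the lone one left in its group.

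Of the 6 low-ratio islands with the largest genotype differences, which include that of *Zbtb7a*, none separated the genotypes at both days. They were picked for these differences. The share of all islands that separate the genotypes was not counted, here or for the islands named below. The intronic island near *Gm13463* (chr2:42083455-42084119, ratio 0.68), 1 of the multicopy islands, measured 20.4% and 25.9% in *Smchd1*wt against 50.5% and 25.5% in *Smchd1*matΔ at day 2, and 22.7% and 38.9% against 59.4% and 27.5% at day 2.5. Line 1 of *Smchd1*matΔ was the highest library at each day, and the genotypes overlapped. The island at *Tpst2*, which encodes a sulfotransferase acting on protein tyrosines (chr5:112307592-112308235, ratio 0.67, overlapping a coding exon), measured 66.7% and 50% against 75% and 70.8% at day 2. At day 2.5 it measured 50% and 67.9% against 90% and 60.3%, so the genotypes separated at day 2 and overlapped at day 2.5 (limma differences 14.6 ± 12.2 and 16.2 ± 12.2 points, SE; adjusted p = 0.968 and 0.963).

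*Tmem259*, which encodes a membrane protein, had an island overlapping a coding exon 1002 bp from a start (chr10:79976710-79977771, ratio 0.7). It measured 29.2% and 21.2% in *Smchd1*wt against 46.2% and 25% in *Smchd1*matΔ at day 2, and 17.5% and 19.6% against 42.5% and 36.7% at day 2.5. The groups separated at day 2.5, where *Smchd1*matΔ was 21 ± 14.2 points higher (SE, limma, adjusted p = 0.963). The island of *Tmem151b*, another membrane protein gene (chr17:45544795-45545946, ratio 0.8, 3731 bp from a start), separated at day 2, with 9.78% and 5% against 22.5% and 17.4%, a difference of 12.6 ± 4.03 points (limma, adjusted p = 0.968). Day 2.5 gave 11.2% and 16.7% against 15.2% and 15.9%, with overlap. The island of *Repin1*, a zinc finger gene (chr6:48596934-48597805, ratio 0.65), was a large difference in the other direction, with 52.0% and 41.5% against 43.3% and 25.6% at day 2.5 and overlapping lines.

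The smallest p-values belonged to islands of low level. For genotype at day 2 it was an island overlapping a coding exon of *Wrb*, whose product inserts tail-anchored proteins into membranes (chr16:96159094-96159734, ratio 0.73). It measured 6.94% and 4.41% in *Smchd1*wt at day 2 and 2.38% and 1.56% at day 2.5, and it was listed at 0 in all 4 *Smchd1*matΔ libraries (difference at day 2 -5.68 ± 0.839 points, SE, limma, unadjusted p = 0.000366, adjusted p = 0.526). For day 2.5 it was the island over the start of *Arhgef4* (chr1:34750259-34751085), listed at 0 except in *Smchd1*matΔ at day 2.5, at 1.14% and 1.47% (adjusted p = 0.466). The smallest p for the mean of both days fell on the island shared by *Gpr137c* and *Txndc16* (chr14:45219319-45220490), which lay between 0 and 0.826% in *Smchd1*wt and measured 0, 6.45%, 6.61% and 2.10% in *Smchd1*matΔ (adjusted p = 0.854). Values of this size may rest on few methylated reads, since the depth of each island is unknown.

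The change of the class mean with the day of differentiation had no common direction over the 4 lines. From day 2 to day 2.5 the mean of the low-ratio islands changed by -0.0507 and 0.0735 points in *Smchd1*wt, in opposite directions, and by -0.143 and -0.0658 points in *Smchd1*matΔ. Averaged over lines this was 0.0114 points for *Smchd1*wt and -0.105 points for *Smchd1*matΔ. High-ratio islands changed by -0.0265 and -0.0248 points, and their mean fell in all 4 lines. The mean over all 7461 islands also fell in all 4 lines, on average by -0.0259 points in *Smchd1*wt and -0.0594 in *Smchd1*matΔ. In limma 0 members were called for the day effect in either genotype or for its interaction with genotype, against 0% of all islands in each. At an unadjusted p under 0.05 there were 55 members for day in *Smchd1*wt (4.79%, background 4.07%), 64 for day in *Smchd1*matΔ (5.57%, background 4.41%) and 65 for the interaction (5.66%, background 4.67%). The smallest p-values again fell on low levels, at *Gnptg*, a subunit of the enzyme that tags lysosomal proteins (chr17:25239880-25240594), which measured 1.25% and 1.11% in *Smchd1*wt at day 2 and 0 elsewhere (adjusted p = 0.560 in limma), and near *Mir1966* (chr8:105613933-105614532), at 1.67% and 1.74% in *Smchd1*matΔ at day 2 and 0 elsewhere (adjusted p = 0.424).

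Gene lists with a bearing on the study touched few low-ratio islands, and none of their islands averaged 10% or more. Developmental transcription factors of families such as Fox, Gata, Lhx, Pax, Sox and Tbx supplied 23 of the 1196 low-ratio islands (1.92%), with a mean of 1.81% ± 0.163 (SD, n = 4 lines), a median of 1.00% and a range from 0 to 8.07%. They supplied 4 of the 1342 high-ratio islands (0.298%), with a median of 0.354%. Of the 23, 3 had an unadjusted p under 0.05 for genotype at day 2 and 1 at day 2.5, against 4.21% and 4.29% of all islands in limma. The islands of intermediate ratio at these genes had 4 and 5 of 23. The highest was at *Gata2*, a gene of early blood and neural development, whose island over a start and an annotated UTR (chr6:88193562-88194598, ratio 0.77) measured 1.95% and 6.03% in *Smchd1*wt against 7.55% and 10.6% in *Smchd1*matΔ at day 2. Day 2.5 gave 5.26% and 7.99% against 13.5% and 11.6%. *Smchd1*matΔ was higher without overlap at both days, by 5.11 ± 2.11 and 5.92 ± 2.11 points (SE), at unadjusted p of 0.0488 and 0.0287 and adjusted p of 0.968 and 0.960 in limma. *Foxl1* followed, with 6.14% to 10.6% over the libraries, and then *Neurog1*, a neural fate gene, with 6.82% and 4.69% in *Smchd1*wt but 0 and 1.32% in *Smchd1*matΔ at day 2, and 3.63% and 8.95% against 7.64% and 4.17% at day 2.5.

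Imprinted genes had 3 low-ratio islands. The island 43 bp from a start of *Airn*, the noncoding RNA of the *Igf2r* cluster (chr17:12741441-12742489, ratio 0.79, intronic), measured 4% and 1.30% in *Smchd1*wt against 6.67% and 9.46% in *Smchd1*matΔ at day 2, and 5.57% and 0.769% against 20.2% and 4.05% at day 2.5. The genotypes separated at day 2 and overlapped at day 2.5, and the adjusted p was 0.970 and 0.960 (limma). The island over *Zrsr1* (mean 0.746%) measured 0.572% and 0 in *Smchd1*wt against 2.67% and 1.11% in *Smchd1*matΔ at day 2, and 0.25% and 0 against 0.813% and 0.557% at day 2.5. *Smchd1*matΔ was higher without overlap at both days, at unadjusted p of 0.0269 and 0.356 and adjusted p of 0.968 and 0.976 in limma. The *Plagl1* island averaged 0.600%, and its genotypes overlapped at both days. Germline genes had 1 low-ratio island, over the start of *Dazl*, an RNA-binding protein of germ cells, which lay between 0 and 3.92%, while 1 of their 2 high-ratio islands, at *Sycp1*, lay between 73.6% and 83.3%.

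Pluripotency genes had 3 low-ratio islands, at *Otx2* (mean 2.79%) and at *Tbx3* (1.64% and 0.488%). Neuromesodermal and early lineage genes had 3, at *Evx1* (2.99%), *Rspo3* (2.22%) and *Sp8* (0.284%). Genes of DNA methylation had 2, at *Tet3* (0.596%) and *Mbd3* (0.309%), and SMCHD1 and Polycomb genes had 3, at *Pcgf3* (1.14%), *Cbx2* (0.233%) and *Jarid2* (0.153%). At *Evx1*, a homeobox gene of the primitive streak, both *Smchd1*wt libraries of day 2.5 were listed at 0, and those of *Smchd1*matΔ measured 4.96% and 4.21% (unadjusted p = 0.04998, adjusted p = 0.960 in limma). At day 2 the same island measured 2.68% and 3.13% against 1.19% and 7.77%, with overlap. The highest value of these islands in any library was 12.5%, at *Rspo3* in *Smchd1*matΔ line 2 at day 2.5, where the other *Smchd1*matΔ library of that day was at 0.

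The other highly methylated high-ratio islands were an intergenic one near *Gm48528* (chr12:19243676-19244311, ratio 1.22), between 47.5% and 71.9%, and one over the starts of *3110070M22Rik* and *Tmem267* (chr13:119487973-119489121, ratio 1.12), between 42.7% and 53.7%. Spread within a group grew with the level in both classes. Low-ratio islands at 10% or more had a median SD between the lines of a group of 6.04 points and a median range over the 8 libraries of 17.6 points, and for those under 1% these were 0.389 and 1.13 points.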

How the data were processed

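RRBS libraries were prepared from DNA of 8 samples with the NuGEN Ovation kit and read as single ends of 75 bp. The authors trimmed reads with TrimGalore, Cutadapt 1.15 and a script for diversity bases, aligned them to GRCm38.p6 with Bismark 0.20.0, and summarised methylation per CpG island with SeqMonk. The deposited files hold the percent of methylated calls of each island in each library, not normalised between libraries. Every island counted equally, whatever its depth. The study kept islands with over 10 reads in all libraries. Read depth per island is unknown, so no interval could be given for a level, and a value of 0 from few reads cannot be told from a low level. The listed CpG ratio was taken from the island name as deposited, and its computation is not given in the sources used here.

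The labels' genotype, day and line gave the groups. Members and lists were chosen with earlier results of these data known. Islands were annotated with GENCODE vM21 by the first match among coding exon, UTR, noncoding exon, intron and intergenic, so an island over a start can count as coding exon. Class means were compared over 4 lines with two-sided exact sign-flip permutation tests (scipy 1.17.1, Python 3.11.15). The 7196 islands that varied were fitted together in limma 3.58.1 (R 4.3.3) with a mean for every group, 4 residual degrees of freedom and a mean-variance trend, and p-values were adjusted over them by Benjamini-Hochberg. Each line was 1 value for the average over days. The step was tested on simulated data with known shifts, in which the share of unshifted islands among those called at an adjusted p under 0.05 was above that threshold. The limma p-values rest on the spread between lines within a group, moderated towards the trend over all islands. Except for the average over days, this fit held no line term. Both days of a line thus counted as independent, and the day contrasts did not use the pairing.

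Named islands were the 8 of highest mean, the 4 of largest genotype difference at each day, that of smallest p in each of 6 contrasts, the 4 of lowest ratio, up to 3 per gene list (germline, imprinted, pluripotency, neuromesodermal and early lineage, DNA methylation, SMCHD1 and Polycomb, and developmental transcription factor genes, with a transcript start within 2 kb), and the 4 high-ratio islands of highest mean. Within a genotype the days are paired by line, since the cells are the same. The difference between the lines at day 2 correlated with that at day 2.5 across members at 0.0503 (Pearson's r) for *Smchd1*wt lines and 0.421 for *Smchd1*matΔ lines. Across genotypes lines share only a number. Alternatives were medians, stricter ratio limits, positions, filters on level, scaled libraries, the computed ratio, length bands, a log2 scale, robust estimation, a replicate block and leaving out each library. Islands over 2 kb from a start, those sharing no 75-base run, members at 10% or more and the data without *Smchd1*matΔ line 1 were added after seeing the data. Mean columns of the *Hox* table were not used.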

Additional observations from a re-analysis of the deposited data

Results flagged for a closer look

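Groups of 2 lines were too small for a test of single outlying samples. In 2 named islands the change with day or genotype had opposite directions in all lines of the compared groups. How many of all islands show such a pattern was not counted. The island over the start of *Lrig2*, a gene of a membrane protein with leucine-rich repeats and immunoglobulin domains (chr3:104511416-104512158, ratio 0.74), was listed at 0 in both *Smchd1*wt lines at day 2 and measured 2.27% and 1.47% at day 2.5, while in *Smchd1*matΔ it measured 1.09% in both lines at day 2 and 0 in both at day 2.5. *Smchd1*matΔ minus *Smchd1*wt was thus 1.09 points at day 2 and -1.87 points at day 2.5, and the change from day 2 to day 2.5 was 1.87 points in *Smchd1*wt and -1.09 points in *Smchd1*matΔ. The interaction had an unadjusted p of 0.00117 and an adjusted p of 0.867 in limma, and it was the member with the smallest p for that contrast among 1149, so it was picked for this pattern. The *Tmem151b* island changed by 6.56 points on average with day in *Smchd1*wt and changed by -4.42 points in *Smchd1*matΔ, with both lines of each genotype in that direction (interaction -11.0 ± 5.70 points, SE, adjusted p = 0.867 in limma). Neither interaction passed the correction. The *Tmem151b* island was named for its large genotype difference at day 2, so it too was not picked independently of this pattern.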

How the results depend on the processing

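The class difference of 1.39 points kept its direction under all 21 alternatives, from 0.141 points for medians to 3.59 points for islands over no transcript start, and from 1.38 to 1.41 points when each library was left out. With the computed CpG ratio it was 1.85 points, and with the 10th and 90th percentile as limits 2.36. With libraries as units the difference was the same 1.39 points at p = 0.00781 by the exact permutation test, and without both libraries of *Smchd1*matΔ line 1 it was 1.32 points, with 3 lines left.

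Some settings moved a value from its main result by at least the SD between lines of that main result. Over no transcript start the genotype differences of the low-ratio mean were 1.147 points at day 2 and 0.649 at day 2.5. The SD between lines of a group in that subset was 1.06 and 0.796 points. The difference between the classes there was 1.34 and 0.498 points larger in *Smchd1*matΔ than in *Smchd1*wt. The change of the low-ratio mean with day in *Smchd1*matΔ was -0.452. Over islands averaging at least 1% the genotype differences were 0.754 and 0.411 points, beside SDs of 0.742 and 0.499. The difference between the classes there was 0.596 points larger in *Smchd1*matΔ than in *Smchd1*wt at day 2. The median at day 2.5 gave -0.0647 points. Over members at 10% or more, chosen after seeing the data, the genotype differences were 3.80 and 2.08 points. Both were below the SD between lines of that subset, 4.62 and 3.25 points. When each library was left out, the genotype difference ran from 0.0338 to 0.404 points at day 2 and from -0.0434 to 0.249 at day 2.5, its class difference from 0.0281 to 0.365 and from -0.0460 to 0.204, and the change with day from -0.0710 to 0.0938 in *Smchd1*wt and from -0.289 to 0.0803 in *Smchd1*matΔ.

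Calls among members stayed at 0 in all 6 limma contrasts on the log2 scale, with the filter on level, with robust estimation, with scaled libraries and with the replicate block, paired by line number, which gave 0. Leaving out each library gave 0 to 18 calls for genotype at day 2, 0 to 16 at day 2.5, 0 averaged over days, 0 to 17 for day in *Smchd1*wt, 0 to 19 for day in *Smchd1*matΔ and 0 to 16 for the interaction. Among all islands the same fits gave up to 95, 121, 0, 118, 98 and 117 calls, at most 1.70% of those tested, against at most 1.67% of the members. Each library of a compared group gave calls when left out in the contrasts of 1 day or 1 genotype. For the interaction, 14 came without *Smchd1*wt line 1 at day 2 and 16 without *Smchd1*wt line 2 at day 2.5. The lone library left in a group was then assumed to vary like the other groups, and 239 of the 272 member calls over all contrasts (87.9%) were islands at 0 in all other libraries.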
